A study of Mus musculus with 4 samples.

Results

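The organic cation, carnitine and MATE transporters are 8 mouse genes of the solute carrier families SLC22 and SLC47, namely Slc22a2, Slc22a3, Slc22a4, Slc22a5, Slc22a21, Slc22a18, Slc47a1 and Slc47a2. They are a family list by name, drawn up with earlier results of these data known, and a probe belonged to the set where its RefSeq accession was one of theirs. Each of the 8 genes had 1 such probe, so the set held 8 of the 55681 non-control probes on the array. Kidney RNA had been taken from mice 2 weeks after bile duct ligation (BDL), in which the bile duct is tied off so that bile backs up, or 2 weeks after a sham operation. There were 2 BDL kidneys and 2 sham kidneys, each measured on a 1-colour Agilent array of its own with a Cy3 label. The title of the series asks how the handling of drugs by the kidney adapts to cholestasis. The strain, genotype, sex and age of the mice, and the part of the kidney sampled, are not given in the sources used here. The series describes the replicates as biological.

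Organic cations, among them many drugs, neurotransmitters and creatinine, are cleared by the proximal tubule in a relay. Organic cation transporters (OCT) of the SLC22 family carry them from the blood side into the cell along the membrane potential, and multidrug and toxin extrusion proteins (MATE, SLC47 family) pass them into the urine in exchange for protons. The OCTN branch of SLC22 works at the luminal side, where it recovers carnitine, the carrier of fatty acids into mitochondria, and the antioxidant ergothioneine from the filtrate.

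Values are processed signals divided by the 75th percentile of their own array, on a log2 scale, so 0 is the signal below which 75% of an array's probes lie. A difference is BDL minus sham in these log2 units, and it is set beside its standard error (SE) and 95% interval from a limma fit across 32280 probes. These are the probes that both BDL arrays, both sham arrays or all 4 showed well above background. The levels of different genes were not compared, because each probe has its own efficiency. On the 4 arrays, between 57.7% and 63.1% of spots were well above background and 0 were saturated. The 4 arrays shared 1 slide and were scanned together. In this whole-tissue RNA, fewer cells of a type and less RNA per cell cannot be told apart. The 9 proximal tubule markers, among them the endocytic receptor Lrp2 and the phosphate transporter Slc34a1, were well above background, with a median difference of -0.13. BDL replicate 1 stood apart in markers of other cell types: the summed signal of 6 urothelium markers, in multiples of the 75th percentile, was 57.8 and 1.29 in BDL kidneys, against 2.89 and 9.24 in sham kidneys. That of the 2 adipocyte markers measured out of 5 (Cidec and Retn) was 14.8 and 0.030 in BDL kidneys, against 0.744 and 0.143 in sham kidneys. Adipoq, Plin1 and Lep did not pass the filter on dim probes. On BDL replicate 1 most of the sum was Cidec, at 3.66 in log2 units. On BDL replicate 2 Cidec was at -7.29, below Retn at -5.42.

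Among the 8 genes, 7 passed the filter on dim probes and 0 of these passed an adjusted p of 0.05, as did 0 (0%) of all 32280 probes (limma, Benjamini-Hochberg). The lowest adjusted p among them was 0.867. Unadjusted, 0 of the 7 had a p under 0.05, against 5.65% of all probes. With 2 arrays a group, such counts of 0 do not show that levels were equal. Slc47a2 passed the filter only through the sham arrays, where it was higher, so it is left out of the next counts. Of the other 6 genes, well above background on all 4 arrays, 5 had the lower mean in BDL, but 4 of 6 under 4 of the 5 other scalings, where Slc22a5 changed side. The remaining scaling, the authors' deposited table, is close to the main one. Over the 29849 probes well above background on all 4 arrays, 50.8% had the lower mean in BDL. The basolateral importer Slc22a2, the exporter Slc47a1 and Slc22a18 were lower on both BDL arrays than on both sham arrays, 3 of 6 genes. With the same scaling, 18.4% of those 29849 probes and 18.5% of all 32280 probes were lower without overlap. Under median scaling it was 1 of 6 (Slc22a2), and the share of all probes was not computed under that scaling. Of the 6, 0 were higher on both BDL arrays, against 17.6% of those 29849 probes and 18.2% of all 32280 probes. In either direction, 36.7% of all 32280 probes had no overlap. The outermost bounds of the 6 intervals were 0.452-fold and 1.78-fold of the sham level. The plot of the members on each array shows every value behind these counts.

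**Figure D1:**
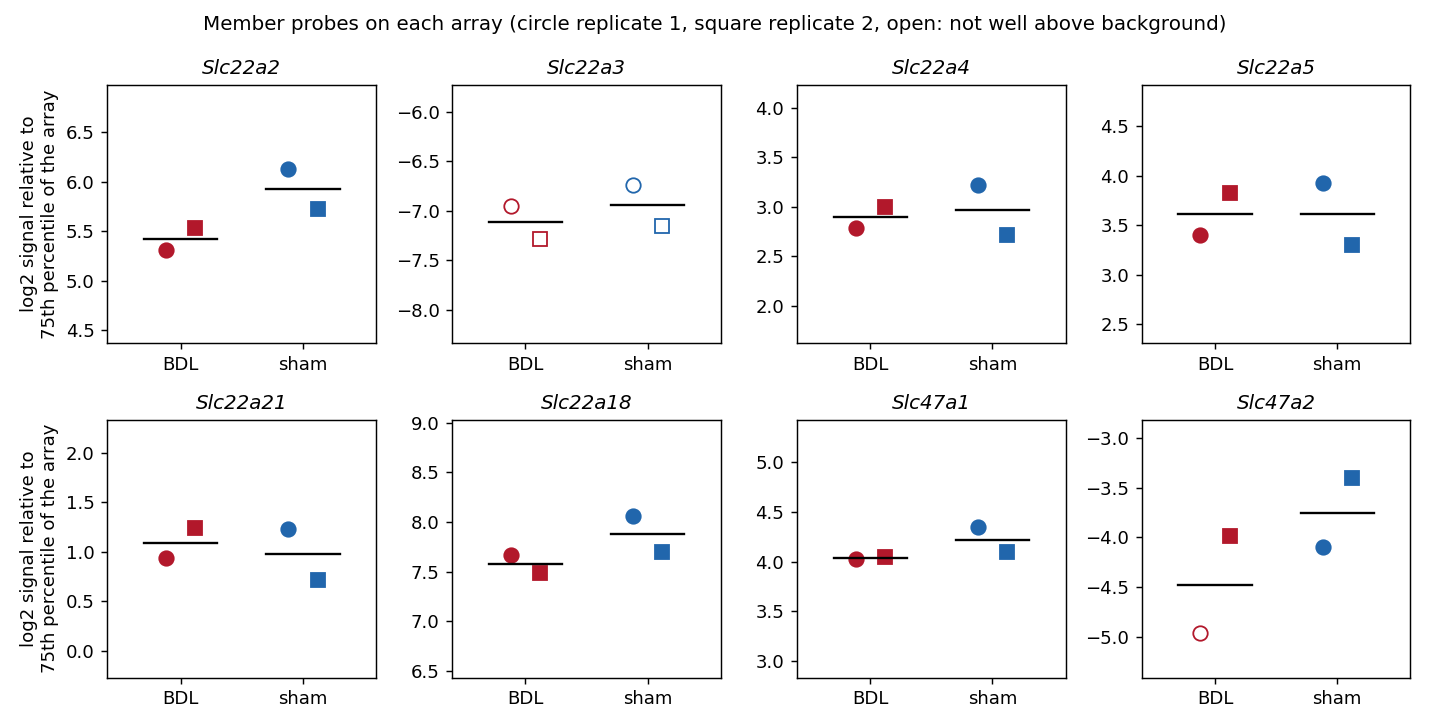
Log2 processed signal relative to the 75th percentile of the array (vertical axes, each spanning the same range of log2 units) for the 8 genes, with BDL kidneys in red and sham kidneys in blue. Circles are replicate 1, squares replicate 2, open symbols were not well above background, and bars are group means of 2 arrays; Slc22a2, Slc22a18 and Slc47a1 show no overlap between the groups.

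Slc22a2 encodes OCT2, the basolateral entry step for organic cations in the kidney. Its values were 5.31 and 5.54 in BDL kidneys, against 6.13 and 5.72 in sham kidneys. Both BDL arrays were lower than both sham arrays, and the gap between the nearest arrays of the 2 groups was smaller than the gap between the 2 sham arrays. The mean was 5.42 ± 0.16 in BDL kidneys and 5.93 ± 0.29 in sham kidneys (SD, n = 2 each). The BDL level was 0.705-fold of the sham level, a difference of -0.50 (SE 0.24, 95% interval -1.15 to 0.14, limma adjusted p = 0.867). The interval ran from 0.452-fold to 1.101-fold, so that a fall of that size was within it as well as no difference. The unscaled processed signals were 29326 and 43853 in BDL kidneys, against 49790 and 44885 in sham kidneys. The 2 groups did not overlap on that scale or under any of the 5 other scalings tried. With single arrays left out the difference was -0.71 without sham replicate 2, -0.30 without sham replicate 1, -0.39 without BDL replicate 1 and -0.62 without BDL replicate 2.

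The promoter of Slc22a2 is shown because this gene had the smallest p of the set, and that of Slc22a18 because it too showed no overlap between the groups. Those of Slc22a4 and Slc22a5 are shown because these neighbours had the same order of arrays. The sequences are the 250 bases before the transcript start in RefSeq's GRCm38.p6 tables, written 5′ to 3′ on the strand of the gene. Of the 8 genes, 6 had an entry, and Slc22a21 and Slc47a1 had none. The positions are chr17:12583939-12584188 (plus strand) for Slc22a2, chr7:143473539-143473788 (plus strand) for Slc22a18, chr11:54028105-54028354 (minus strand) for Slc22a4 and chr11:53891704-53891953 (minus strand) for Slc22a5. Capitals mark matches to 4 short motifs on either strand: the E-box CACGTG, the nuclear receptor core AGGTCA, the GC box GGGCGG and the TATA box TATAAA.
Slc22a2: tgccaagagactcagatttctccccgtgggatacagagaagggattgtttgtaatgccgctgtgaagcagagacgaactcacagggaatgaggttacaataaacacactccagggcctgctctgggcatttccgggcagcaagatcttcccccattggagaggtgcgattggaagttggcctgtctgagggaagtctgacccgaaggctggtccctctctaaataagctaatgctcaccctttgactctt
Slc22a18: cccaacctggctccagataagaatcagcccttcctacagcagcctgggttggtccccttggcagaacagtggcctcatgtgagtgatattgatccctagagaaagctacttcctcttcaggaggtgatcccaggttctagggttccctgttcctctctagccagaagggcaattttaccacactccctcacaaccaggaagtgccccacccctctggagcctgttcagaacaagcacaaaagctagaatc
Slc22a4: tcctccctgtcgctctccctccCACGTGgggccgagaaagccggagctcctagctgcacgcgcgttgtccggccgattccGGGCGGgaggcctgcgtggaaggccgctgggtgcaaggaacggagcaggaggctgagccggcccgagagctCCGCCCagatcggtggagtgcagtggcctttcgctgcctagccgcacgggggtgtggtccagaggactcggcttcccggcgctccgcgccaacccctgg
Slc22a5: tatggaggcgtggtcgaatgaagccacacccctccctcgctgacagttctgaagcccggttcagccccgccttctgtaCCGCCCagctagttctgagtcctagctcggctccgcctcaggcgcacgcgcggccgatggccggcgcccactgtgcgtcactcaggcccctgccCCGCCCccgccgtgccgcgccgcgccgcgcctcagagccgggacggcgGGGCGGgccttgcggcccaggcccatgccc

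None of the 4 motifs occurred in these windows of Slc22a2 and Slc22a18. The window of Slc22a4 held 1 E-box, 228 bases before the start, and 2 GC boxes, and that of Slc22a5 held 3 GC boxes. No 2 matches overlapped. Among 32851 mouse promoters of the same length, 6.02% held the E-box, 14% the nuclear receptor core, 32.7% the GC box and 12.4% the TATA box. CpG dinucleotides numbered 6 in the Slc22a2 window and 0 in that of Slc22a18, while the windows of Slc22a4 and Slc22a5 held 26 and 30, against a median of 6 over all promoters. These matches are descriptions of letters in the windows shown. No match says only that the letters are absent there.

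Slc22a3 encodes OCT3, a high-capacity transporter of monoamines that is found in many tissues. Its processed signals were 6.005 and 6.05 in BDL kidneys, against 6.66 and 5.97 in sham kidneys. The probe was not well above background on any of the 4 arrays, so no fold is given for it.

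Slc47a1 encodes MATE1, the luminal proton-coupled exporter that completes the secretion of organic cations. Its values were 4.03 and 4.05 in BDL kidneys, against 4.35 and 4.09 in sham kidneys. The 2 BDL arrays lay close together and just below sham replicate 2, while sham replicate 1 stood higher. The mean was 4.04 ± 0.011 in BDL kidneys and 4.22 ± 0.18 in sham kidneys (SD, n = 2 each), a difference of -0.18 (SE 0.21, 95% interval -0.73 to 0.37, limma adjusted p = 0.908). The interval spanned 0.603-fold to 1.29-fold. Before scaling, the signals of 12106 and 15614 in BDL kidneys overlapped those of 14512 and 14488 in sham kidneys. Under median scaling the groups overlapped too. The difference was -0.053 without sham replicate 1, -0.31 without sham replicate 2 and -0.17 without BDL replicate 1.

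Slc47a2 is the neighbour of Slc47a1 on chromosome 11 and encodes a second MATE protein, which in the mouse is known mainly from the testis. Its processed signals were 23.7 and 59.5 in BDL kidneys, against 41.5 and 80.3 in sham kidneys, and BDL replicate 1 was not well above background. On the log2 scale these were -4.97 and -3.99 in BDL kidneys, against -4.10 and -3.40 in sham kidneys. The groups overlapped, since BDL replicate 2 stood above sham replicate 1 (with normexp background correction they did not), and replicates of a group lay further apart than for any other member. The difference was -0.73 (SE 0.44), with 1 of the 2 BDL arrays well above background. It is given as a description, since the probe was kept only because both sham arrays, the higher group, were above background. It was -0.30 with normexp, which raises dim signals by an offset. Without single arrays it ran from -1.22 (without BDL replicate 2) to -0.24 (without BDL replicate 1), and it was -1.08 without sham replicate 1 and -0.38 without sham replicate 2.

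**Figure D2:**
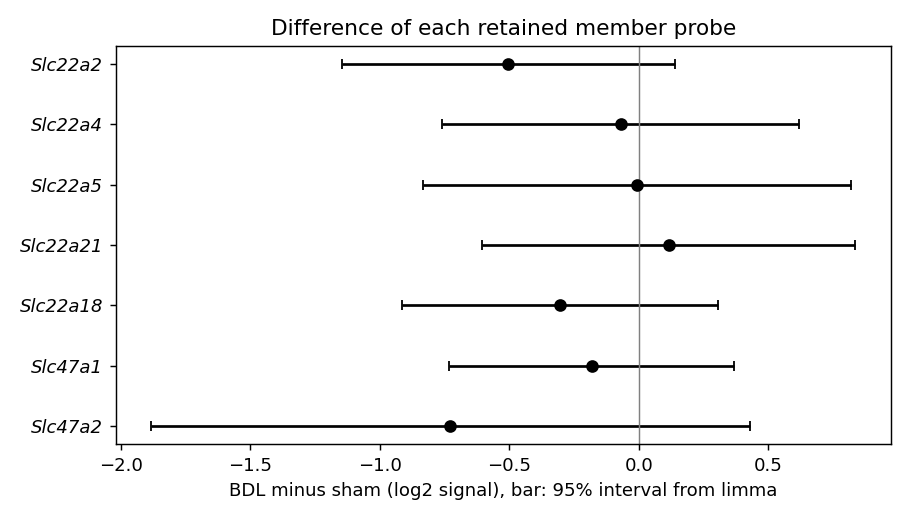
BDL minus sham in log2 signal (horizontal axis) for the 7 retained probes, each with its 95% interval from limma. Every interval includes 0, and that of Slc47a2 is the widest, from -1.88 to 0.43; its probe was kept only through the sham arrays.

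The 3 OCTN genes lie in a cluster on chromosome 11, in the order Slc22a5, Slc22a21 and Slc22a4. Slc22a5 encodes OCTN2, the sodium-coupled carnitine transporter whose loss in mice and humans causes systemic carnitine deficiency. It stood at 3.40 and 3.82 in BDL kidneys, against 3.93 and 3.30 in sham kidneys. The 2 sham arrays were the highest and the lowest of the 4. The means were 3.61 ± 0.30 in BDL kidneys and 3.62 ± 0.44 in sham kidneys (SD, n = 2 each), and the difference was -0.0065 (SE 0.31, 95% interval -0.83 to 0.82, limma adjusted p = 0.999). A change from 0.562-fold to 1.76-fold was within the interval, so these data do not show that the level was the same.

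Slc22a4 encodes OCTN1, best known as the ergothioneine transporter. Its values of 2.79 and 2.996 in BDL kidneys lay between those of 3.21 and 2.71 in sham kidneys. The difference was -0.070 (SE 0.26, 95% interval -0.76 to 0.62, limma adjusted p = 0.972). Slc22a21 encodes Octn3, a carnitine transporter described in the mouse. It stood at 0.94 and 1.24 in BDL kidneys, against 1.23 and 0.72 in sham kidneys. The difference was 0.12 (SE 0.27, 95% interval -0.60 to 0.84, limma adjusted p = 0.952). The 3 genes are related in sequence and could share probe targets, which was not tested.

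Among the OCTN genes, BDL replicate 2 and sham replicate 1 were the 2 higher arrays and BDL replicate 1 and sham replicate 2 the 2 lower ones, with sham replicate 2 lowest. Slc22a4 and Slc22a5 had the same order of arrays from highest to lowest, and 5.45% of all probes showed that order. The order for Slc22a21 differed in its first 2 places and was shared by 2.39% of all probes. The spread between the 2 sham arrays was larger than any difference between the groups for each of the 3 genes. Direction depended on single arrays. For Slc22a5 it was 0.31 without sham replicate 1, 0.21 without BDL replicate 1, -0.22 without BDL replicate 2 and -0.32 without sham replicate 2. Slc22a4 was -0.32 without sham replicate 2, 0.18 without sham replicate 1 and 0.034 without BDL replicate 1. Slc22a21 was -0.14 without sham replicate 2, 0.38 without sham replicate 1 and -0.031 without BDL replicate 2.

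**Figure D3:**
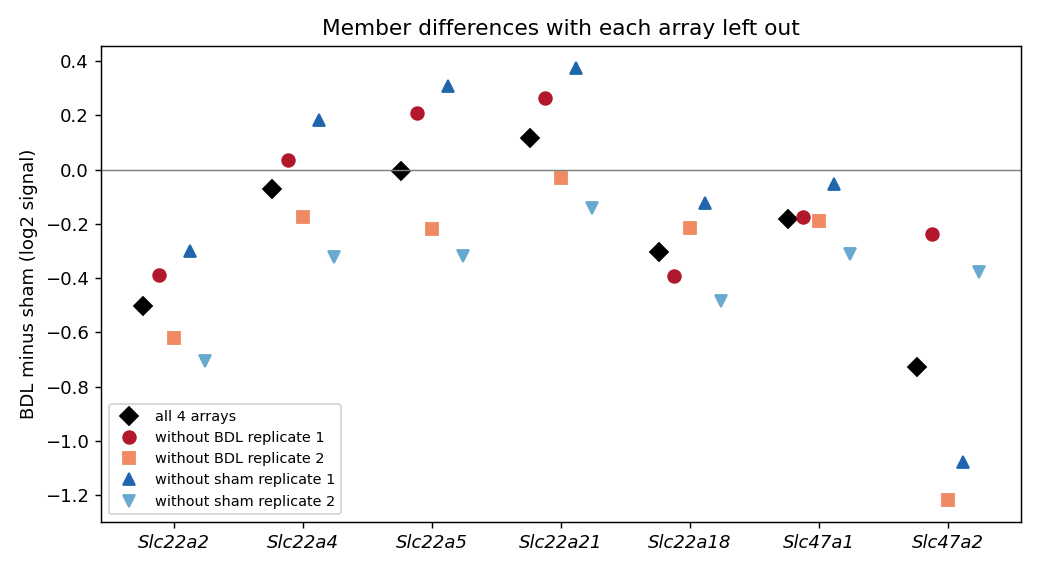
BDL minus sham in log2 signal (vertical axis) for the 7 retained probes with all 4 arrays (diamonds) and with 1 array left out (other symbols). Slc22a2, Slc22a18, Slc47a1 and Slc47a2 stay below 0 in all 5 fits, while the 3 OCTN genes lie on both sides of 0.

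Slc22a18, known earlier as Orctl2 or Impt1, encodes an organic cation transporter-like protein and is an imprinted gene of the Cdkn1c domain on chromosome 7. Its values were 7.67 and 7.49 in BDL kidneys, against 8.06 and 7.70 in sham kidneys. BDL replicate 1 and sham replicate 2 lay close together, so the groups were separated narrowly. The mean was 7.58 ± 0.13 in BDL kidneys and 7.88 ± 0.26 in sham kidneys (SD, n = 2 each). The BDL level was 0.810-fold of the sham level, a difference of -0.30 (SE 0.23, 95% interval -0.91 to 0.31, limma adjusted p = 0.882). The unscaled signals were 150600 and 169908 in BDL kidneys, against 190382 and 176957 in sham kidneys. Under median scaling the groups overlapped. The difference was -0.12 without sham replicate 1, -0.48 without sham replicate 2 and -0.39 without BDL replicate 1.

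Markers of the last proximal tubule segment (S3) were mostly lower in BDL kidneys as well, as were Slc22a2, Slc47a1 and Slc22a18. Of the 7 S3 markers, all measured, 6 were lower on both BDL arrays and 1, the glucose transporter gene Slc5a1, was higher on both, with a median difference of -0.53 and 0 past the threshold. Their summed signal, in multiples of the 75th percentile, was 279 and 349 in BDL kidneys, against 575 and 494 in sham kidneys. The brightest probes in sham kidneys, Atp11a (difference -0.47) and Slc22a7 (-1.86), weigh most in the sham sums. Lower markers outside the SLC22 family were Atp11a, Slc5a8 (-0.53) and Slc7a13 (-0.43). The other lower markers, Slc22a7, Slc22a13 (-0.54) and Slc22a19 (-0.999), are SLC22 genes too, so the list overlaps with that family. The amino acid transporter Slc7a13 was at 5.34 and 5.31 in BDL kidneys, against 5.78 and 5.74 in sham kidneys. Of the 8 markers of the earlier segments (S1 and S2), 4 were higher on both BDL arrays and 0 lower, with a median of 0.22 and a summed signal of 653 and 703 in BDL kidneys, against 773 and 574 in sham kidneys. Over all features with 1 probe per gene, 17.4% were higher and 19.2% lower without overlap, with a median of -0.011. Of the 8 markers of the distal convoluted tubule and collecting duct, 8 had the higher mean in BDL, 3 without overlap, with a median of 0.48. Of 5 measured red blood cell markers 5 were higher, 4 without overlap, with a median of 1.63 and a summed signal of 1210.0 and 760 in BDL kidneys, against 668 and 531 in sham kidneys. Of 6 hepatocyte markers 5 were lower, 3 without overlap, with a median of -0.80. In each marker list 0 genes passed the threshold. The part of such shifts in the values of Slc22a2, Slc47a1 and Slc22a18 was not tested.

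**Figure D4:**
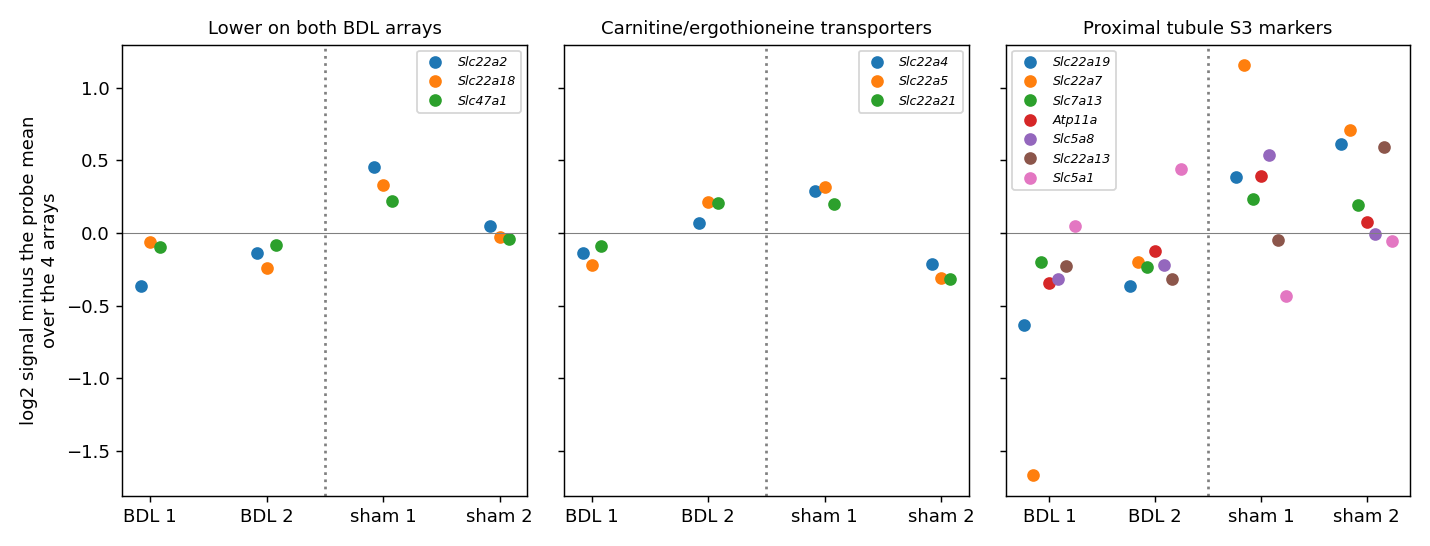
Log2 signal minus the mean of the probe over the 4 arrays (vertical axis) on each array, BDL left of the dotted line and sham right of it, for Slc22a2, Slc22a18 and Slc47a1 (left), the 3 OCTN genes (middle) and the 7 S3 markers (right). In the left panel both BDL arrays lie below both sham arrays for each gene, while in the middle panel BDL replicate 2 and sham replicate 1 are the 2 higher arrays.

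The probe pattern most like that of Slc22a2 was sought among 5517 probes of other named genes that varied at least as much over the 4 arrays. By the root mean square difference of the profiles after centring each on its own mean, the nearest included Abhd5 (0.013) and Tmem254a (0.021). Their differences were -0.51 for Abhd5, which encodes a co-activator of triglyceride lipase, and -0.51 for Tmem254a. Other probes of the same genes differed by less, at 0.032 and -0.16 for Abhd5 and -0.099 for Tmem254a. The likeness rests on 4 arrays, over which 80 of the 5517 probes lay within 0.1 of Slc22a2.

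Genes around the transporters were described by list. Of the 12 genes for carnitine synthesis and the carnitine shuttle, all measured, 9 had the higher mean in BDL and 3 the lower, 4 and 2 of them without overlap (over all features 17.4% and 19.2%), with a median of 0.15 and 0 past the threshold. Slc25a20, the mitochondrial carnitine-acylcarnitine exchanger, was 1.16 and 1.17 in BDL kidneys, against 0.48 and 0.49 in sham kidneys, a difference of 0.68 (SE 0.19, limma adjusted p = 0.857). Crot, the peroxisomal carnitine octanoyltransferase, was 4.71 and 5.16 in BDL kidneys, against 5.78 and 5.79 in sham kidneys, a difference of -0.85 (SE 0.24, adjusted p = 0.857). Tmlhe, the first enzyme of carnitine synthesis, differed by -0.40 (SE 0.20, adjusted p = 0.867). For Slc25a20 and Crot the groups lay further apart than their replicates did, though neither passed the threshold, while for Slc22a5 and Slc22a21 the groups overlapped. Whether these genes differ from each other in their response was not tested.

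A list of 8 further genes held other SLC22 genes, not all of them known to carry organic cations, with Slc29a4, Abcb1a and Abcb1b. Of the 7 measured, 6 had the higher mean in BDL, 2 without overlap (Abcb1a and Slc22a23), with a median of 0.24. Of 7 measured among 9 choline and thiamine transporters, 4 were higher and 3 lower, 3 and 0 without overlap, with a median of 0.11. Slc44a4, a choline transporter-like protein that carries thiamine diphosphate in the human colon, was 2.18 and 2.39 in BDL kidneys, against 1.47 and 1.18 in sham kidneys, a difference of 0.96 (SE 0.22, adjusted p = 0.794). Of the 9 genes for luminal proton and sodium exchange and the PDZ scaffold, which set the gradient and the membrane place of MATE and OCTN proteins, 3 were higher and 6 lower, 0 and 1 without overlap, with a median of -0.12. Of the 8 genes for creatine and guanidino compounds, whose product creatinine is a substrate of OCT2 and MATE1, 6 were higher and 2 lower, 1 and 0 without overlap, with a median of 0.12. Of the 7 genes of monoamine breakdown, 3 were higher and 4 lower, 0 and 1 without overlap, with a median of -0.0034. Of 16 regulators, 7 were higher and 9 lower, 3 and 2 without overlap, with a median of -0.036. The xenobiotic receptor gene Nr1i2 (PXR) was -0.82 and -1.34 in BDL kidneys, against -2.64 and -2.08 in sham kidneys, a difference of 1.28 (SE 0.32, adjusted p = 0.809). In each of these lists 0 genes passed the threshold.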

How the data were processed

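Per the submitters' processing notes, signals came from Agilent Feature Extraction, version 11.0.1.1. Its deposited processed signal, a linear intensity, is corrected for background and for spatial trend, with no scaling across arrays, per the file headers. The deposited spot median and local background are raw intensities, and the other deposited columns used are spot flags. The value table that the authors deposited also contains intensities: a column is the processed signal over a single constant (739 and 939.8 for BDL, 709 and 844 for sham, met within 1% by 100% of 35228 shared probes). It is linear and uncentred, with medians of 0.329 and 0.330 (BDL) and 0.328 and 0.339 (sham). The constants lie close to the 75th percentiles of the arrays (741 and 945 for BDL, 712 and 849 for sham), though how they were set is unknown.

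Control spots and outliers were left out (55668 of 55681 probes remained), repeated spots were averaged as log2, and the array's 75th percentile was subtracted (741 and 945 signal units for BDL, 712 and 849 for sham). Accessions were named through RefSeq's GRCm38.p6 table (27229 probes matched), which was used for no array coordinates since the grid lists mm9. The test was limma 3.58.1 in R 4.3.3, two-sided, with operation as its only term and Benjamini-Hochberg adjustment over 32280 probes; it was first tested on simulated data. With 2 arrays a group, which limits precision, exact permutation cannot reach a p below 0.333. In gene lists the brightest retained probe stood for a gene. Named are all members, up to 3 genes per list by smallest p and the 3 probes most like the member with the smallest p; not all of these are reported. Members and lists were chosen with earlier results of these data known.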

Additional observations from a re-analysis of the deposited data

How the results depend on the processing

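The count of probes past an adjusted p of 0.05 was 0 with all arrays (of 32280) and under all 14 alternatives tried, as was that of members (5 other scalings or background corrections, no filter, a stricter filter, 1 probe per gene, array weights, a replicate block and each array left out), with limma throughout. Probes tested numbered 55668 with no filter, 30619 in the authors' table, 29849 with the stricter filter, 24043 with 1 probe per gene and 32280 otherwise. The authors' table is close to the main scaling, so it is hardly a separate alternative. The smallest adjusted p of a member ranged from 0.419 (without sham replicate 2) to 1.00 (without BDL replicate 1). At an unadjusted p under 0.05 there were 1823 probes, and between 1056 (without BDL replicate 1) and 3852 (without sham replicate 2) with single arrays left out. With 1 array left out, the lone sample of a group is assumed to vary like the pair of the other group. Slc22a5 turned to 0.018 with normexp, 0.020 with quantile normalization, 0.016 with median scaling and 0.014 with the percentile taken over probes well above background on all arrays. Its values with single arrays left out ran from -0.32 to 0.31, those of Slc22a4 from -0.32 to 0.18 and those of Slc22a21 from -0.14 to 0.38, and the cause was not tested. Slc22a2, Slc22a18, Slc47a1 and Slc47a2 stayed negative under each alternative that gave them a value; Slc47a2 was dropped by the stricter filter. Of the 7 retained members, 4 were lower on both BDL arrays with normexp, 1 with median scaling and 3 with the other scalings. The count with normexp includes Slc47a2, which passed the filter only through the sham arrays. With the main scaling 18.5% of all 32280 probes were lower without overlap, and the share was not computed under the others.

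The replicate numbers are shared by the groups, and the labels speak of RNA pairs without saying what makes a pair or which kidneys form one. Deviations of same-numbered arrays from their group means correlated at 0.070 across the 32280 probes. With the replicate number as a block, 0 probes and 0 members passed the threshold, and the SE of Slc47a2 was 0.23 (unadjusted p = 0.0354, without the block 0.163, limma adjusted p = 0.810, difference -0.73, BDL replicate 1 not well above background). Slc22a3, not well above background on any array, had no difference in the main fit to vary. Slide and scan were the same for all arrays.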

Other observations

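Chromosomal neighbours of the transporters were listed as well, each with 0 genes past the threshold. In the Cdkn1c domain around Slc22a18, 7 of 11 measured genes had the higher mean in BDL and 4 the lower, 4 and 2 without overlap, where 17.4% and 19.2% of all features with 1 probe per gene did the same. Cdkn1c, a cell cycle inhibitor that is imprinted like Slc22a18, was 4.60 and 3.77 in BDL kidneys, against 2.73 and 2.52 in sham kidneys, a difference of 1.56 (SE 0.34, limma adjusted p = 0.794), while Slc22a18 stood lower on both BDL arrays. Podocytes express Cdkn1c strongly, and the 6 podocyte markers were all higher without overlap (17.4% of all features were), with a summed signal of 35.2 and 34.3 in BDL kidneys, against 27.8 and 22.4 in sham kidneys; their part in the value of Cdkn1c was not tested.

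Beside the OCTN genes, the interferon-induced transcription factor gene Irf1 was 1.86 and 1.71 in BDL kidneys, against 5.598 and 1.77 in sham kidneys, so that sham replicate 1 alone was high. The OCTN genes were also high on that array, but BDL replicate 2 was close to it or above it for Slc22a5 and Slc22a21 and low for Irf1. Near Slc22a2, the gene Mas1, a receptor for angiotensin 1-7, was 0.24 and 0.66 in BDL kidneys, against 3.19 and 1.17 in sham kidneys, a difference of -1.73 (SE 0.70, limma adjusted p = 0.867), and its other probe differed by -1.52. Sham replicate 1 was the highest array for both probes. Near the MATE genes, Rnf112 had the smallest p of the 4 neighbour lists. It stood at -5.99 and -6.06 in BDL kidneys, with neither array well above background, against -4.36 and -3.25 in sham kidneys. The probe was kept only because both sham arrays, the higher group, were above background. Its rank by p and its fold are therefore given as a description. With each BDL value raised to at least the lowest signal well above background on its array, the BDL mean was 2.51-fold lower. The limma fit on the measured values gave an adjusted p of 0.693.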
